A study of Rattus norvegicus with 6 samples.

Results

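Immediate early genes are genes whose transcripts appear within minutes of a signal at the cell surface, before any new protein is made. The set described here was written down by name and holds 10 genes, Fos, Fosb, Jun, Junb, Jund, Egr1, Atf3, Ier2, Zfp36 and Dusp1. Of these 10, 9 were found among the 21170 genes of the count tables, and Dusp1 was not analysed here. Single testis cells from 6 rats of the SD laboratory strain were profiled, with 1 library per animal: 3 rats after a stress model built on frightening sound, and 3 normal rats without it. Tissue was dissociated with enzymes, captured on Singleron microfluidic devices with the GEXSCOPE kit, and sequenced on Illumina NovaSeq. The age of the rats, the length of the stress, and the time between the last sound and the removal of tissue are missing from the sources used here, and each stressed animal is known only as post-stressed. The libraries are called stressed 1 to 3 and control 1 to 3.

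Fos, Fosb, Jun, Junb, Jund and Atf3 encode leucine zipper proteins that pair with each other and bind DNA as the transcription factor AP-1 or as relatives of it. Egr1 encodes a zinc finger transcription factor, Ier2 a small nuclear protein, and Zfp36 the protein tristetraprolin, which binds AU-rich messages and speeds their decay. Growth factors, calcium, cyclic AMP and cell stress switch most of these genes on through the factors SRF and CREB, which bind the CArG box and the cyclic AMP response element, while Jund is known for a steadier level than the others.

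The promoters of 4 members are printed because they carry the classic signal elements of this family. The table of promoter windows of 300 bases used here, taken from RefSeq on assembly GRCr8, was matched for 6 of the 9 members, each window running from 250 bases before the start of the gene to 50 after it. Fos, Jun and Atf3 are named only. Capitals mark the cyclic AMP response element TGACGTCA in Jund, on the minus strand at chr16:18769722-18770021, and in Ier2, on the plus strand at chr19:40399123-40399422. In Egr1, on the plus strand at chr18:26736828-26737127, and in Zfp36, on the minus strand at chr1:92799059-92799358, capitals mark CArG boxes.
Jund: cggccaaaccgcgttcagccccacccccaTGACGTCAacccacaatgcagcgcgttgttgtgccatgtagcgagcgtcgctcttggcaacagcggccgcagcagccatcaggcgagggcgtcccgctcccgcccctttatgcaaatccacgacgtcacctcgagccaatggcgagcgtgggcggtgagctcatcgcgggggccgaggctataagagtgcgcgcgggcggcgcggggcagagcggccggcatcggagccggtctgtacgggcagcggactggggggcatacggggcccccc
Ier2: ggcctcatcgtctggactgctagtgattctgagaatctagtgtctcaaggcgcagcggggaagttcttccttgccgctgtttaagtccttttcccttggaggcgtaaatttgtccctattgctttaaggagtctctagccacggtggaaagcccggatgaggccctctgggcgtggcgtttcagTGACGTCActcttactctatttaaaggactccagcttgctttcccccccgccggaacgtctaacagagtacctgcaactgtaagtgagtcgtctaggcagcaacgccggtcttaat
Egr1: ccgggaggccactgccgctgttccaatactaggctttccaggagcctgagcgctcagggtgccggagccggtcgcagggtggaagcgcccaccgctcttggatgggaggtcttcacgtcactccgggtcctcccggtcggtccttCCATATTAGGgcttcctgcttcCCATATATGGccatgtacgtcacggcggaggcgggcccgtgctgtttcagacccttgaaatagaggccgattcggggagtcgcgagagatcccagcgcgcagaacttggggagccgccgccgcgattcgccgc
Zfp36: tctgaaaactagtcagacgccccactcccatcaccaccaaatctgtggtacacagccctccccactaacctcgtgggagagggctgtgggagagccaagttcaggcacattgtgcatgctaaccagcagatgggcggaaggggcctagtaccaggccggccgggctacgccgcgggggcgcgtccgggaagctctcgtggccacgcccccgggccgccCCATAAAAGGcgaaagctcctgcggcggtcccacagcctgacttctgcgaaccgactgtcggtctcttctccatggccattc

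The motifs were searched on both strands. The element TGACGTCA lay at bases -221 to -214 from the start of Jund and at -66 to -59 from that of Ier2, and 612 of all 33469 promoter windows, 1.83%, hold it. CArG boxes lay at -105 to -96 and -83 to -74 in Egr1 and at -32 to -23 in Zfp36, and 548 windows, 1.64%, hold one. The core TGACG, which is contained in TGACGTCA, occurred in the windows of 4 of the 6 members and in 21.2% of all windows. In Jund it occurred once more at -98 to -94, and in Egr1 at -135 to -131 and -66 to -62. The site GCGGGGGCG lay at -79 to -71 in Zfp36 and is held by 2.73% of windows. TATAAA was found in Fosb and Junb and in 14.2% of windows, CCAAT in Junb, Jund and Egr1 and in 37.5%, and TGACTCA in none of the 6 and in 4.63%. These are matches of letters in a window, not measured binding.

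The 6 tables held 11744 cells, with 409, 2506 and 2233 cells in stressed 1 to 3 and 2342, 1801 and 2453 in control 1 to 3. Stressed 1 had the fewest counts in all, 16756543, because it held the fewest cells, while the other 5 held between 73650164 and 114984746. The median cell held 27987 to 35263 counts in stressed libraries and 34853.5 to 41632 in control libraries. Cells were clustered without the members or other early response genes, and 3 germ cell classes were named from marker genes: 1326 spermatocyte-like cells, 4006 round spermatid-like cells and 5679 elongating spermatid-like cells. The other 733 cells lay in clusters left unnamed. Stressed 1 gave only 22 spermatocyte-like cells, 102 round spermatid-like cells and 76 elongating spermatid-like cells, and 209 of its 409 cells were unnamed. Of the 31 clusters, 16 drew over 50% of their cells from 1 library, and the cluster that held most of a class differed between libraries, so values within a class compare partly different clusters. The largest elongating spermatid-like clusters were 24, 5 and 0 in stressed 1 to 3 and 3, 9 and 0 in control 1 to 3. The first round spermatid-like clusters were 20, 23 and 1 in stressed 1 to 3 and, in control libraries, 2 and 4 with equal shares, 22, and 1. Spermatocyte-like cells lay mainly in cluster 11 in stressed 1, stressed 2 and control 2 and in cluster 6 in the other 3 libraries. Only 2 cell barcodes occurred in more than 1 library.

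Members were rare in these cells apart from Jund. Over all 11744 cells, Jund had a count in 2105 cells, 17.9%, while Fos had one in 373 cells, 3.18%, and Jun in 363, 3.09%. Atf3 was found in 167 cells, Egr1 in 136, Fosb in 118, Ier2 in 71, Zfp36 in 51 and Junb in 50. Levels are given as counts per 1000000 counts of a library or class, abbreviated CPM. CPM are not divided by gene length, so libraries and classes are compared gene by gene. Where genes are ranked or summed below, this describes counts and not transcript numbers. In a sum over cells, fewer cells with a transcript and less transcript per cell cannot be told apart, and shares of cells are therefore given as well.

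In the 6 libraries, 8 of the 9 members had the same order at the top: stressed 1 highest and control 2 next. Jund was the exception, and for Fosb the second place of control 2 was narrow, at 1.07 CPM against 0.980 CPM in stressed 2. Among all 19988 genes with a count, 1909 genes, 9.55%, showed that order, which was read from these values and not fixed by the labels. Stressed 1 and control 2 belong to different groups, and each of the 8 genes overlapped between the groups.

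Fos, the leucine zipper partner whose induction is the textbook mark of a stimulated cell, stood at 60.2, 0.415 and 0.242 CPM in stressed 1 to 3, against 0.797, 6.27 and 0.704 CPM in control 1 to 3. Stressed 1 alone was above every control library, and stressed 2 and 3 were below all 3 of them. Fos had a count in 35.9% of stressed 1 cells (Wilson 95% interval 31.4 to 40.7), and in 0.479% and 0.493% of the cells of stressed 2 and 3. In control 1 to 3 the share was 0.470%, 9.77% (8.49 to 11.2) and 0.652%. Among cells with a Fos count, the median was 1 count in stressed 1 and in control 2. It was 3 in stressed 2 and 1 in the other libraries. Over all genes the median count above 0 was 6 in stressed 1 and 5 in control 2. A single stressed 1 cell held 192 of that library's 1008 Fos counts, 19.0%. Fosb, the paralog of Fos with a slower time course, had 2.27, 0.980 and 0.954 CPM in stressed 1 to 3, against 0.776, 1.07 and 0.0435 CPM in control 1 to 3. Here control 3 stood apart at the low end, with 5 counts in all.

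Jun, the partner of Fos in AP-1, had 25.1, 1.02 and 1.83 CPM in stressed 1 to 3, against 1.93, 3.92 and 0.713 CPM in control 1 to 3. The cell with most Fos counts also held 113 Jun counts, 26.8% of the Jun counts of stressed 1. Jun was found in 24.0%, 1.20% and 1.84% of stressed 1 to 3 cells and in 2.18%, 7.16% and 0.571% of control 1 to 3 cells. Stressed 2 and 3 lay within the range of the control libraries. Junb, a member of the family that often dampens Jun, had 1.73, 0.0426 and 0.0269 CPM in stressed libraries and 0.0744, 0.530 and 0.0957 CPM in control libraries. The stressed 2 and 3 values rest on 4 and 2 counts and were below those of all 3 control libraries.

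Jund, the third Jun protein and the member known for its steady level, had 11.9, 18.7 and 11.7 CPM in stressed 1 to 3, against 13.9, 24.3 and 11.04 CPM in control 1 to 3. The stressed values all lay inside the control range. The share of cells with a count was 18.6%, 20.9% and 13.3% in stressed libraries and 15.3%, 33.1% and 10.2% in control libraries. Jund therefore did not share the pattern of the other 8 members.

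Egr1, a growth factor response gene, had 2.75, 0.0532 and 0.107 CPM in stressed 1 to 3, against 0.287, 1.18 and 0.217 CPM in control 1 to 3. Atf3, a stress-induced repressor of the ATF family, had 17.2, 0.234 and 0.443 CPM in stressed libraries and 0.159, 1.90 and 0.617 CPM in control libraries. Ier2 had 3.64, 0.0213 and 0.0940 CPM in stressed libraries, against 0.0212, 0.665 and 0.0522 CPM in control libraries. All 3 genes overlapped between the groups. Zfp36 had 4.36, 0.0106 and 0.0672 CPM in stressed 1 to 3, the second from 1 count, and 0, 0.815 and 0 CPM in control 1 to 3. A count of 0 allows up to 0.0319 CPM in control 1 and 0.0261 CPM in control 3, taking 3 independent counts as the limit. The median count above 0 was 7 in control 1 and 13 in control 3, so such limits may be too low.

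**Figure D1:**
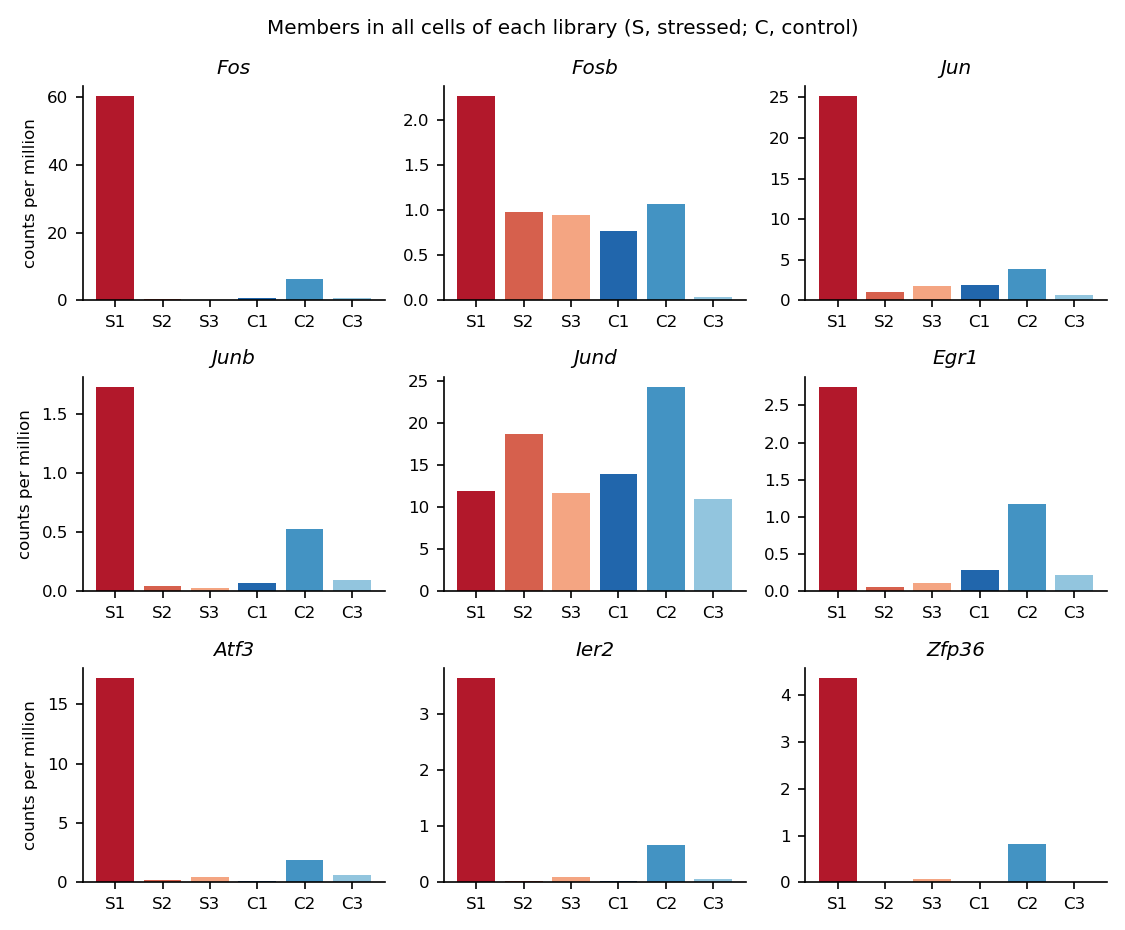
CPM of each member (vertical axis, a scale of its own per panel) in all cells of stressed 1 to 3 and control 1 to 3; each bar is 1 library with no error. For 8 genes the bar of stressed 1 is the tallest and that of control 2 next, while Jund runs from 11.04 to 24.3 with no such order.

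The tests between stressed and control animals used these library sums. Of 14519 genes tested over all cells with edgeR's quasi-likelihood test, 1 passed an adjusted p of 0.05, which is 0.00689%, while 200 had an unadjusted p under 0.05. Of the 9 members, 6 passed the filter on low counts and none passed the test, each with an adjusted p of 1.00. The log2 fold change of stressed over control was 3.16 for Fos with a standard error of 2.41, 2.89 for Atf3 (SE 1.88) and 2.31 for Jun (SE 1.34). For Fosb it was 1.37 (SE 0.90), for Egr1 0.90 (SE 1.34) and for Jund -0.02 (SE 0.40). The median over the 6 was 1.84, beside -0.01 over all genes tested. Without stressed 1 and control 2 the values were -0.97 for Fos, -0.16 for Atf3, -1.49 for Egr1 and 0.51 for Jund, so the positive sign of the first 3 rested on those libraries. The mean level was 20.3 ± 34.5 CPM in stressed and 2.59 ± 3.19 CPM in control libraries for Fos, and 14.1 ± 3.96 against 16.4 ± 6.97 CPM for Jund (SD, n = 3 each).

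Within the germ cell classes no member passed the test either. In spermatocyte-like cells, where 0 of 9786 genes passed (0.0%; 207 with an unadjusted p under 0.05, and 3 called by DESeq2), only Jun passed the count filter, with a log2 fold change of 1.68 (SE 0.69) and an adjusted p of 0.998 by edgeR. In round spermatid-like cells 2 of 12188 genes passed, 0.0164%, and the log2 fold changes were 1.57 for Atf3, 0.86 for Jun, 0.31 for Jund and 0.06 for Fos. In elongating spermatid-like cells 1 of 10975 genes passed, 0.00911%, and Fos had a log2 fold change of 2.83 (SE 1.56), Jun 1.49, Atf3 1.06, Fosb 0.81, Egr1 0.04 and Jund 0.03. Shares of cells, after each cell was thinned to 10000 counts, gave the same outcome. Fos then had a count in 17.4%, 0.160% and 0.269% of stressed 1 to 3 cells and 0.171%, 4.55% and 0.163% of control 1 to 3 cells, means of 5.93 ± 9.90% and 1.63 ± 2.53% (SD, n = 3 each; 2-sided exact permutation test p = 0.7). Jund had means of 9.39 ± 1.86% and 10.1 ± 5.47% (p = 0.9 by the same exact test). Over the 9 members the exact p ran from 0.5 to 1, all 1 after Benjamini-Hochberg adjustment. With 3 against 3 libraries the smallest exact p possible is 0.1.

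**Figure D2:**
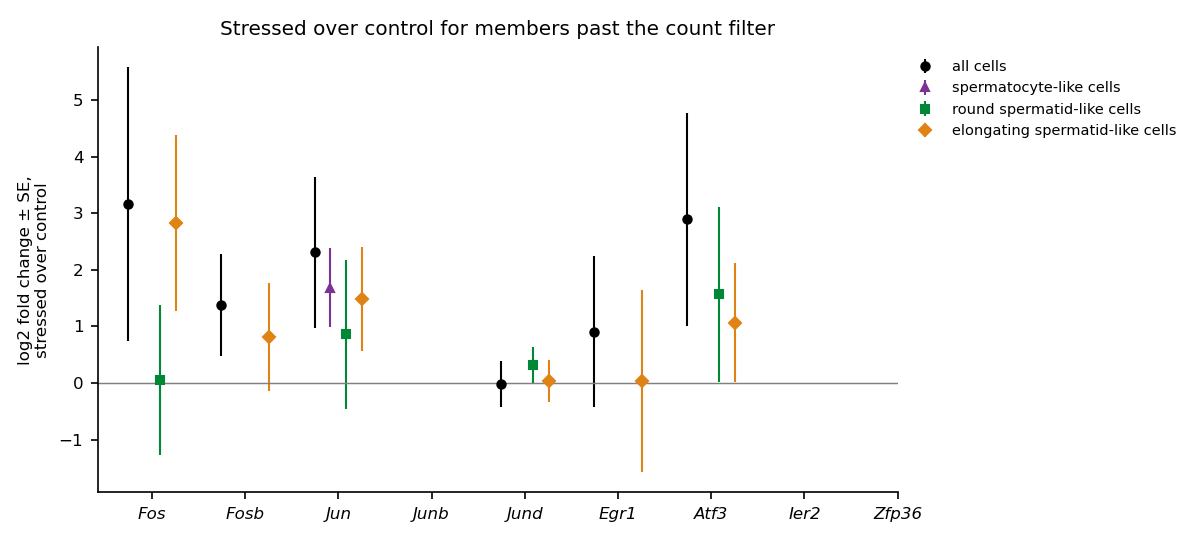
Log2 fold change of stressed over control with its standard error (vertical axis) for members past the count filter, in all cells and in each germ cell class (colours and symbols). Junb, Ier2 and Zfp36 have no point because they did not pass the filter; the Jund points sit between -0.02 and 0.31 while those of Fos, Jun and Atf3 spread more widely with long error bars.

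Jund differed between germ cell stages. It was rarely detected in spermatocyte-like cells, which are in or near meiosis. It was present in round spermatid-like cells, the haploid cells after meiosis, and highest in elongating spermatid-like cells, in which the nucleus is being compacted. It had a count in 18 of 1326 spermatocyte-like cells, 1.36%, in 652 of 4006 round spermatid-like cells, 16.3%, and in 1337 of 5679 elongating spermatid-like cells, 23.5%. Median counts per cell in these classes were 32499, 38374.5 and 33730, so the low share in spermatocyte-like cells came at a depth close to that of the elongating class.

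By library, Jund in spermatocyte-like cells was at 0, 0.271 and 0.819 CPM in stressed 1 to 3 and at 0.109, 3.56 and 0 CPM in control 1 to 3. The 0 of stressed 1, from 22 cells, allows up to 3.68 CPM, and that of control 3 up to 0.547 CPM. Round spermatid-like cells had 17.3, 19.3 and 11.9 CPM in stressed libraries and 12.2, 17.3 and 11.8 CPM in control libraries. The lowest of these 6 values was above the highest spermatocyte-like value. Elongating spermatid-like cells had 35.3, 23.4 and 15.3 CPM in stressed libraries, against 21.0, 31.5 and 11.4 CPM in control libraries. Round exceeded spermatocyte-like cells in 6 of 6 libraries, and elongating exceeded round in 5 of 6, control 3 being the exception at 11.4 against 11.8 CPM. Groups overlapped within the round and the elongating class.

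In the test of round spermatid-like over spermatocyte-like cells, with the library as a block, 8391 of 13547 genes passed edgeR's adjusted p of 0.05, 61.9%, of which 4746 were higher (35.0% of those tested) and 3645 lower (26.9%). Of the members, 8 passed the count filter, 1 rose and 1 fell, 2 of 8 beside that background. The members' median log2 fold change was 1.89, beside 0.03 over all genes tested. Jund rose by a log2 fold change of 5.44 (SE 0.68, adjusted p = 3.19e-05), and the value ran from 4.82 to 6.24 over the alternative settings. Leaving out 1 library at a time gave 5.059 to 6.105. The plain CPM ratio of round over spermatocyte-like cells was 112 in control 1 and 71.2 in stressed 2, each with 2 spermatocyte-like counts. It was 14.6 in stressed 3 and 4.85 in control 2, and has no value in stressed 1 and control 3, which were at 0. The size thus varied widely between libraries.

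In the test of elongating over round spermatid-like cells 8387 of 14051 genes passed, 59.7%, with 3169 higher (22.6%) and 5218 lower (37.1%). All 9 members were tested, 2 rose, none fell and the other 7 did not pass, with a median of 0.50. Jund rose by a log2 fold change of 1.59 (SE 0.18, adjusted p = 3.68e-06 by edgeR). This size depends on the scale: the median over all genes tested was -0.49 with TMM factors and -1.55 when total counts set the scale, and Jund was then at 0.54 (SE 0.19, adjusted p = 0.0231). Jund thus kept its direction under both scales. The plain CPM ratio of elongating over round cells was 2.04, 1.22 and 1.28 in stressed 1 to 3 and 1.72, 1.82 and 0.968 in control 1 to 3.

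**Figure D3:**
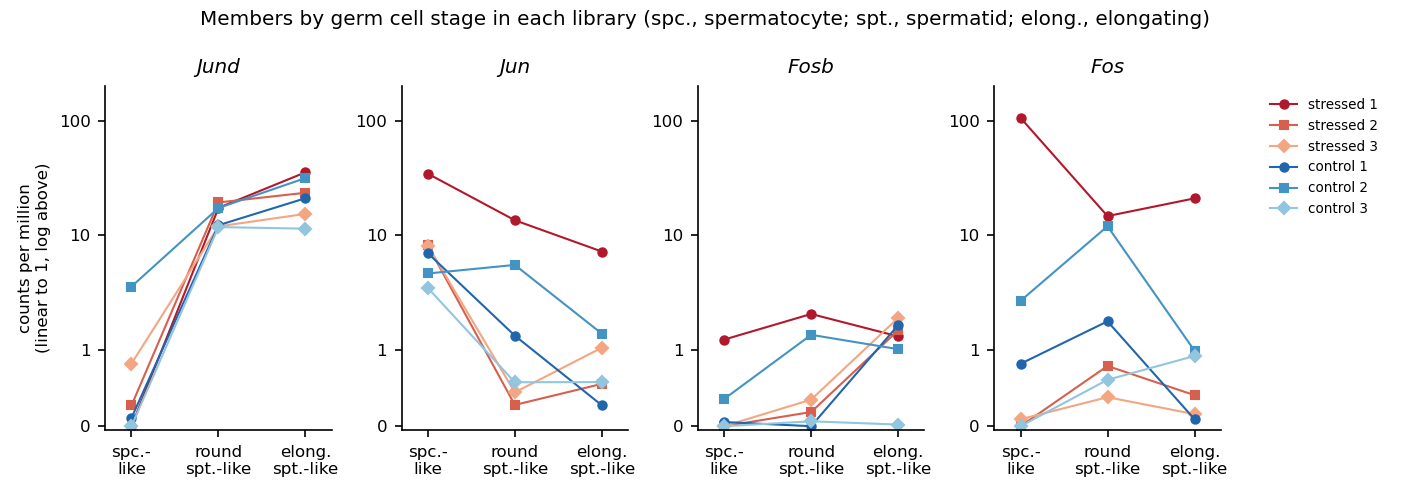
CPM (vertical axis, linear to 1 and logarithmic above) of Jund, Jun, Fosb and Fos in the spermatocyte-like, the round spermatid-like and the elongating spermatid-like class; each line is 1 library, stressed in red shades and control in blue. Jund climbs between the first and the second class in all 6 libraries, Jun is lower in elongating than in spermatocyte-like cells in all 6, and Fos goes either way between the second and the third class.

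Within the elongating class Jund varied several-fold between clusters, and the same clusters stood high in several libraries. Cluster 24, with Dcdc2c and Limk1 among its 10 leading genes, had 61.2 CPM in stressed 1 and 90.1 and 56.9 CPM in control 1 and 2. In control 1, 27 of its 30 cells had a Jund count. Cluster 16, also with Limk1 among its leading genes, had 30.1 CPM in stressed 3 and 50.5 and 45.1 CPM in control 1 and 2. These were the highest elongating clusters in the libraries that held at least 20 of their cells. In stressed 2, whose elongating cells lay mostly in clusters 5 and 13, cluster 18 led with 38.5 CPM. The round spermatid-like cluster 19, with Cd109, Maf and Rbm47 among its 10 leading genes, had 47.5, 36.4 and 29.9 CPM in stressed 1 to 3 and 40.2 and 40.3 CPM in control 1 and 2. It was among the 3 highest clusters in all 5 libraries with at least 20 of its cells, and control 3 had none of them. At the other end, cluster 8, with Prm2 among its leading genes, had 2.63 CPM in control 1, and cluster 3, likewise with Prm2, had 2.90 CPM there. Prm2 encodes a protamine, the protein that packs DNA in the late spermatid. In control 3, which had no cell of clusters 16, 19 or 24, the highest levels were 27.3 CPM in cluster 7 and 25.3 CPM in the round spermatid-like cluster 1, with 8.30 CPM in cluster 0. The clusters a library held thus moved with its class level, and their part in the differences between libraries was not tested.

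**Figure D4:**
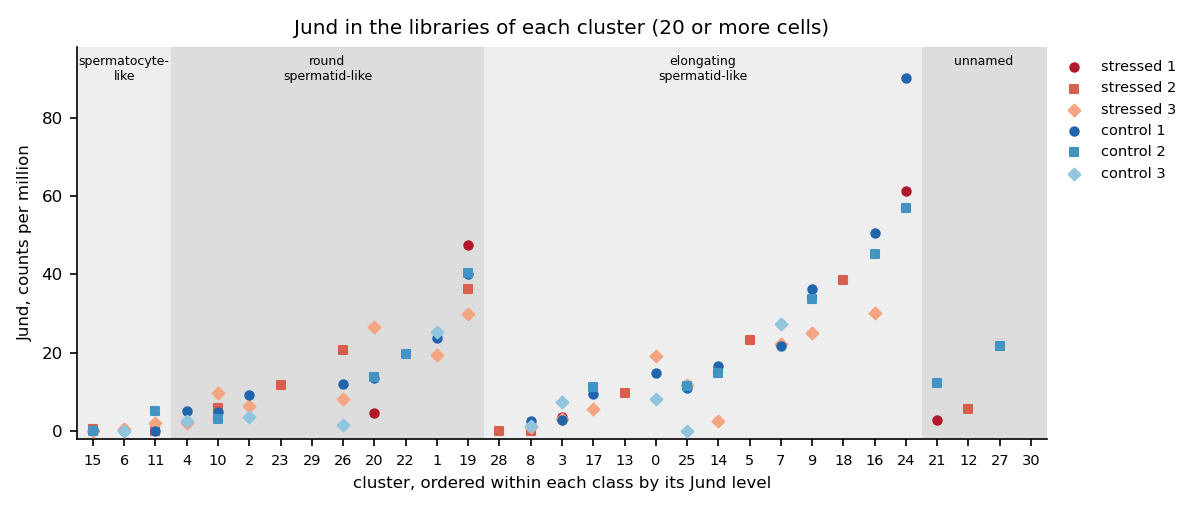
Jund CPM (vertical axis) in each cluster with at least 20 cells of a library (horizontal axis, clusters grouped by class and ordered by Jund level); red symbols are stressed and blue symbols control libraries. Spermatocyte-like clusters run from 0 to 5.27 CPM, the highest being cluster 11 in control 2, where the round spermatid-like cluster 10 is at 3.20 CPM. Clusters 19, 16 and 24 lie high in each library that has them.

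Jun ran the other way. Its level in spermatocyte-like cells was 34.4, 8.13 and 8.10 CPM in stressed 1 to 3 and 6.97, 4.63 and 3.46 CPM in control 1 to 3. The stressed 1 value rests on 4 of 22 cells, and Jun did not pass the test there, as no gene did by edgeR. The stressed values lay above all control values in this class. How many of all genes do so was not counted, so this order is not read as a difference between the groups. Round spermatid-like cells had 13.5, 0.278 and 0.443 CPM in stressed libraries and 1.33, 5.50 and 0.575 CPM in control libraries. Elongating spermatid-like cells had 7.20, 0.554 and 1.04 CPM in stressed libraries and 0.274, 1.38 and 0.577 CPM in control libraries. Elongating cells were below spermatocyte-like cells in 6 of 6 libraries, and round cells in 5 of 6, control 2 being the exception. Over all libraries 93 of 1326 spermatocyte-like cells, 7.01%, had a Jun count, against 2.40% of round and 1.27% of elongating spermatid-like cells. Jun fell in round over spermatocyte-like cells by a log2 fold change of -1.82 (SE 0.64, adjusted p = 0.0284 by edgeR). That call was lost without control 1 (adjusted p = 0.0659), without stressed 2 (0.115) and without stressed 3 (0.0920), and it held without both stressed 1 and control 2 (log2 fold change -2.74, adjusted p = 0.00554). In elongating over round cells Jun was at 0.50 and did not pass (adjusted p = 0.437 by edgeR), and the value was -0.55 with total counts as the scale.

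Fosb was a late transcript in stressed 2, stressed 3 and control 1, and was rare at every stage in control 3. Its elongating spermatid-like level was 1.31, 1.48 and 1.90 CPM in stressed 1 to 3 and 1.64, 1.01 and 0.0214 CPM in control 1 to 3. In spermatocyte-like cells it was 1.23, 0 and 0 CPM in stressed libraries and 0.0544, 0.356 and 0 CPM in control libraries, where a count of 0 allows up to 0.406 CPM in stressed 2, 0.273 CPM in stressed 3 and 0.547 CPM in control 3. Elongating values were nominally above spermatocyte-like ones in each library, but in stressed 1 the spermatocyte-like value rests on 1 count, and in control 3 the elongating value of 1 count lies under what a 0 allows, so the order there is not established. Elongating cells exceeded round cells in 3 of 6 libraries. Round cells had 2.05, 0.185 and 0.348 CPM in stressed and 0, 1.35 and 0.0639 CPM in control libraries. Fosb rose in elongating over round cells by a log2 fold change of 2.52 (SE 0.93, adjusted p = 0.0321 by edgeR). The call was lost without control 1 (0.0721), stressed 2 (0.117) or stressed 3 (0.118) and with total counts as the scale (log2 fold change 1.46, adjusted p = 0.191). It was larger without both stressed 1 and control 2, at 4.08 (adjusted p = 0.00436).

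Fos was higher in round than in spermatocyte-like cells in 5 of 6 libraries, stressed 1 being the exception and the stressed 3 spermatocyte-like value resting on 1 count, and higher in elongating than in round cells in 2 of 6. Its spermatocyte-like level was 106, 0 and 0.0910 CPM in stressed 1 to 3 and 0.816, 2.67 and 0 CPM in control 1 to 3, the first of these from 4 of 22 cells. Round spermatid-like cells had 14.7, 0.788 and 0.379 CPM in stressed libraries and 1.77, 12.0 and 0.607 CPM in control libraries. A single cell held 33 of the 56 round Fos counts of control 1 and 25 of the 38 of control 3. In stressed 2 and 3 the top round cell held 8 of 17 and 6 of 12. The higher round level in these libraries thus rests on few cells. Elongating spermatid-like cells had 20.9, 0.406 and 0.158 CPM in stressed libraries and 0.0912, 0.988 and 0.919 CPM in control libraries. Stressed 1 was the highest library in each class, so its Fos level was not limited to the cells left unnamed. For round over spermatocyte-like cells Fos was at 1.80 (adjusted p = 0.0877 by edgeR) and Atf3 at 2.06 (0.0874), both short of the threshold. Both passed it with DESeq2, at adjusted p = 0.00604 for Fos and 0.0224 for Atf3, and both passed it without stressed 1, where edgeR gave 2.90 (adjusted p = 0.00427) for Fos and 3.43 (0.0135) for Atf3. For Atf3 too the round counts came from few cells, in control 3 with 54 counts in 3 cells. Egr1, Ier2 and Zfp36 passed in neither stage comparison, and Junb was below the count filter in the first and did not pass in the second.

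Cells with several members at once were found almost only in stressed 1 and control 2. At least 1 member other than Jund had a count in 60.1%, 3.19% and 3.81% of the cells of stressed 1 to 3 and in 4.74%, 21.6% and 2.77% of those of control 1 to 3. At least 2 such members had counts in 32.8% of stressed 1 cells and 5.33% of control 2 cells, while the other 4 libraries had 0.0399% to 0.171%. With every cell thinned to 10000 counts, the shares with at least 2 were 10.3%, 0% and 0.0896% in stressed 1 to 3 and 0%, 1.55% and 0.0408% in control 1 to 3. The same libraries thus stood first and second at a fixed number of counts per cell.

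**Figure D5:**
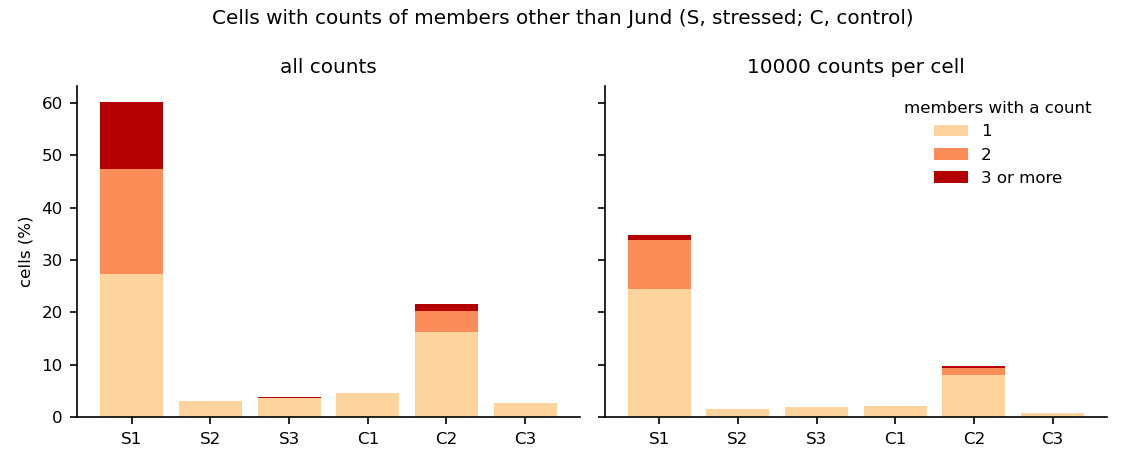
Share of cells (vertical axis, percent) with counts of 1, 2 or at least 3 members other than Jund in each library, from all counts (left) and after thinning each cell to 10000 counts (right). Stressed 1 reaches 60.1% and control 2 21.6% in the left panel, and the other 4 libraries stay below 5%.

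Fos and Jun occurred in the same cells more often than their separate shares would give. In thinned cells of stressed 1, 16 cells held both where 7.12 would be met by independent shares, a ratio of 2.25 (95% counting interval 1.28 to 3.65). In control 2 the count was 11 cells with 2.46 by independent shares, a ratio of 4.47 (2.23 to 8.005). Fos and Jund did not share this: 5 cells held both with 7.12 by independent shares in stressed 1, a ratio of 0.703 (0.228 to 1.64), and 10 with 13.3 in control 2, a ratio of 0.752 (0.361 to 1.38). Fos and Atf3 had ratios of 1.54 (0.663 to 3.03) in stressed 1 and 1.997 (0.242 to 7.21) in control 2, whose intervals include 1. In stressed 1 the Fos and Atf3 ratio was 2.48 with cells thinned to 5000 counts and 2.61 within the named classes, where Fos and Jun had 1.70 and 5.23, so these pairs kept no fixed order. Cells of a library share their source, so these ratios describe 2 libraries and carry no test. Across 80 sums of a library and a cluster, the log2 levels of Fos and Ier2 had a Pearson r of 0.78, Fos and Atf3 0.71, Fos and Egr1 0.68 and Fos and Jun 0.56, whereas Fos and Jund had 0.07. These sums share libraries and differ in depth.

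Most marker transcripts of macrophages, resident immune cells of the testis interstitium, were detected more often in cells with Fos in stressed 1 and control 2. Of the unnamed cells, 235 formed cluster 21, led by Fos, Cfd, Cd74 and Lyz2, with 199 cells from stressed 1 and 34 from control 2. Fos had a count in 103 of those 199 cells, 51.8%, and in 14 of those 34, 41.2%. The best scoring marker list of cluster 21 was that of elongating spermatids, with a score of 0.82, and macrophage came second with 0.79. The cells left unnamed held 77.3% of the counts of the 8 members other than Jund in stressed 1 and 30.9% in control 2. Of the 16 macrophage markers in the list, 16, 14 and 13 had a count in stressed 1 to 3 and 14, 15 and 15 in control 1 to 3. Their summed level was 3723, 2575 and 2084 CPM in stressed libraries and 2240, 2656 and 2133 CPM in control libraries. Aif1 made up most of it, with 3136, 2515 and 2010 CPM in stressed and 2160, 2552 and 2068 CPM in control libraries. Without Aif1 the sum was 588, 59.5 and 74.3 CPM in stressed 1 to 3 and 79.8, 104 and 65.5 CPM in control 1 to 3, which puts stressed 1 first and control 2 second, as for 8 of the members. Most of that sum in control 2 was Apoe, with 361, 32.9 and 26.9 CPM in stressed 1 to 3 and 30.7, 61.1 and 20.4 CPM in control 1 to 3. Not every marker had this order. Adgre1 was at 5.79 CPM in stressed 1 and 24.5 CPM in control 1, and Mrc1 at 16.4 and 21.1 CPM. Cd14 was at 0 in every library but stressed 1, and Cd163 at 0 in stressed 2, stressed 3 and control 1.

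Cell by cell, 14 of the 16 markers had a count in a larger share of the cells with Fos than of those without in stressed 1, the exceptions being Mrc1 with 10.2% against 16.4% and Adgre1 with 2.04% against 10.7%. In control 2 it was also 14 of 16, with Csf1r at 0% against 0.185% and Cd14 at 0 in both; Mrc1 was there at 20.5% against 17.2% and Adgre1 at 16.5% against 11.8%. Cd74, the invariant chain of antigen presentation, had a count in 50.3% of stressed 1 cells with Fos and 24.0% of those without. In control 2 the shares were 14.8% and 3.75%. Apoe, an apolipoprotein abundant in macrophages, had a count in 98.6% of stressed 1 cells with Fos and 63.4% of those without, and in 86.4% and 50.1% in control 2. Cells with Fos were deeper, with a median of 44442 counts against 32710 in stressed 1 and 41962 against 36757 in control 2. The marker shares were not thinned to equal counts, and a deeper cell shows more genes of any kind. The share of all genes detected more often in cells with Fos was not counted, and the part of depth was not tested. Markers of stromal cells summed to 184, 6.05 and 5.88 CPM in stressed libraries and 6.41, 18.3 and 5.15 CPM in control libraries, in the same order of libraries. Sertoli cell markers summed to 14.2, 9.82 and 5.36 CPM in stressed and 7.20, 11.9 and 5.64 CPM in control libraries, and endothelial markers to 3.22, 0.373 and 0.497 CPM in stressed and 0.680, 0.733 and 0.148 CPM in control libraries, in that order as well. Of the 8 marker lists of cells other than germ cells, 7 were highest in stressed 1, and 4 of these had control 2 next. Leydig cell markers, at 21.5, 12.4 and 11.1 CPM in stressed and 12.8, 11.2 and 8.80 CPM in control libraries, were among those that did not have control 2 next. The part of these markers in the Fos level was not tested. The round spermatid-like cluster 22, with 217 of 221 cells from control 2, had 23.4 CPM of Fos in that library and a Fos count in 33.6% of its cells. Fos and Ifitm2 were among its 10 leading genes, and macrophage was the second best scoring marker list of this cluster.

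A wider list of other early response genes was compared, of which 54 of 57 were in the tables. Stressed 1 was highest and control 2 next for 21 of the 54, 38.9%, beside 88.9% of the members and 9.55% of all genes with a count. Between stressed and control animals 31 of them were tested over all cells and none passed, with a median log2 fold change of 0.36 and 25 of 31 above 0. Across stages they moved in both directions. In round over spermatocyte-like cells 13 of 28 rose, 4 fell and 11 did not pass, with a median of 1.41, beside 35.0% of all genes higher and 26.9% lower. In elongating over round cells 10 of 34 rose, 6 fell and 18 did not, with a median of 0.23, beside 22.6% and 37.1%. With total counts as the scale these were 10 and 4 of 28, beside 28.1% of all genes higher and 42.0% lower, and 6 and 9 of 34, beside 9.74% and 60.0%.

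The 5 most abundant genes of that list were Btg1, Tob1, Zfp36l1, Pim1 and Klf4, with means of 89.6, 35.7, 18.0, 17.5 and 16.4 CPM over the 6 libraries. Pim1, a survival kinase, rose in both steps, as Jund did: it rose in round over spermatocyte-like cells by a log2 fold change of 3.54 (adjusted p = 0.00227 by edgeR) and again in elongating over round cells by 3.65 (4.79e-08). Tob1, an antiproliferative protein that recruits the deadenylation machinery, rose in both steps as well, by 2.42 and 1.45. Btg1, of the same family, rose by 1.01 and 0.67, but the second value was -0.39 with total counts as the scale. Klf4, a zinc finger factor of the round spermatid, rose by 2.07 in round cells and fell by 2.53 in elongating cells. Zfp36l1, a paralog of Zfp36, rose by 2.73 and fell by 2.57 in the same steps. None of the 5 passed between stressed and control animals, where their log2 fold changes ran from -0.67 for Zfp36l1 to 0.20 for Btg1.

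The kinases and factors upstream of the members, 25 of 26 in the tables, did not share the library order of the members: stressed 1 was highest and control 2 next for 1 of 25, 4%. None of the 23 tested over all cells passed between stressed and control animals, and their median log2 fold change was 0.04. In round over spermatocyte-like cells 9 of 19 rose and 5 fell, with a median of 0.76, beside 35.0% of all genes higher and 26.9% lower. In elongating over round cells 8 of 20 rose and 6 fell, with a median of 0.38, beside 22.6% and 37.1%. With total counts as the scale these were 8 and 8 of 19, beside 28.1% and 42.0%, and 4 and 12 of 20, beside 9.74% and 60.0%. Crem, the cyclic AMP responsive regulator of spermatid genes, was the most abundant, with 171, 175 and 299 CPM in stressed 1 to 3 and 284, 217 and 356 CPM in control 1 to 3. It rose in round cells by a log2 fold change of 1.55 (adjusted p = 7.20e-08 by edgeR) and fell in elongating cells by 2.19 (3.43e-08), so it turned down in the step in which Jund rose. Creb1, the factor that binds the cyclic AMP response element, rose by 3.39 and fell by 1.68. Atf2, another leucine zipper factor of the ATF family, was at 0.03 in the first step and rose by 2.11 in the second. Atf1, its relative, was at 0.12 and 0.94, and Map2k2, a kinase of the ERK pathway, at -0.53 and 0.63, but the second value of each was below 0 with total counts as the scale, at -0.12 for Atf1 and -0.43 for Map2k2. On that scale the first values of Atf1 and Atf2 were -0.55 and -0.63.

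Over the 80 sums of a library and a cluster with at least 20 cells, and among 5480 genes with a mean of at least 10 CPM, the genes most like the summed members were Ctdspl2 with a Pearson r of 0.73, Ell with 0.72, Alg9 with 0.71, and Ssbp3, Mgat4e and Ergic3 with 0.70 each. Clk4 and ENSRNOG00000047632 followed with 0.69, and Rnf24 and Adrm1 with 0.68. In every library but stressed 1, Jund was above the other 8 members together, for example at 18.7 against 2.78 CPM in stressed 2 and 24.3 against 16.4 CPM in control 2. The sum was thus mainly Jund there. For Jund alone, looked at after that, Ccdc159 reached 0.87, Prcp 0.85 and Sinhcaf, Actrt3 and Rdh10 0.84. For the other 8 members together no gene went above 0.61, reached by Rpl32. These likenesses are descriptions across sums that share libraries and differ in depth.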

How the data were processed

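Cells of 6 testes were compared, 3 stressed and 3 control, each library from 1 animal per the series' design text, so p-values measure the spread between these 6 libraries. For each library the authors deposited raw counts by gene and cell, whole numbers of at least 0; normalized tables on a natural log scale were deposited too and were not used. The aligner, genome build, gene annotation and cell filter are not given in the labels or files, which also do not state if reads or molecules were counted. Values equal to 1 made up 12.4% to 18.4% of values above 0, whose median was 5 to 13 by library. Intervals cover counting error only. The limits given for a count of 0 treat counts as independent, and may be too low.

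All 11744 cells passed the filter of 200 genes and a mitochondrial share of 20% or less and were kept, and the shallowest cell held 13747 counts. A doublet caller marked 73 cells, 0.622%, which stayed in. Cells of all libraries were clustered with scanpy 1.11.5 and leidenalg 0.10.2 (Leiden resolution 1, 15 neighbours, 30 principal components, 1988 variable genes) without the members, other early response genes and mitochondrial genes, and classes were named from 12 marker lists. Counts were summed per library, or per library and class, and fitted with edgeR 4.0.16 in R 4.3.3 (quasi-likelihood, TMM, filterByExpr, Benjamini-Hochberg over all genes). Stage comparisons carried the library as a block. DESeq2 1.42.0 was an alternative. On simulated data for the stressed over control comparison of 14519 genes, 96% of 200 genes changed by a log2 of 2 were recovered, with 13 false calls. The simulated dispersion was 0.1, and only genes with a mean above 200 counts were changed. The recovery therefore does not apply to members with fewer counts or a wider spread between libraries. Shares of cells were compared by an exact permutation test after thinning.

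The members and gene lists were chosen with earlier results of these data known. All members are named; of each further list the 5 genes with the highest mean CPM are, and as most like in pattern the 10 genes with the highest correlation with log2 of the summed members plus 1. The genes most like Jund alone, the clusters described and the library order were picked after their values were seen.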

Additional observations from a re-analysis of the deposited data

How the results depend on the processing

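Over the settings run, the member log2 fold changes kept direction and side of the threshold in 372 cases, passed it in 9 where they had not, missed it in 8 where they had, and changed sign in 64. No member passed the stressed over control test under any setting. Genes called over all cells, 1 at first, were 2 without the count filter, 4 with DESeq2, 3 in the named germ cell classes and 11 without both stressed 1 and control 2. In spermatocyte-like cells 0 became 2 without the filter and 3 with DESeq2, in round spermatid-like cells 2 became 7 with DESeq2 and 9 without both libraries, and in elongating spermatid-like cells 1 became 5 with DESeq2 and 3 without both libraries. Without both libraries the stressed over control values were -0.16 for Atf3, -0.97 for Fos, -1.49 for Egr1 and 0.51 for Jund over all cells, -0.55 for Atf3, -0.88 for Fos and -1.26 for Jun in round cells, and -0.90 for Fos in elongating cells, where elongating over round Fos was 0.08. In the named classes Jund was 0.14. With the early genes added to the variable genes, elongating values were -0.75 for Atf3, -0.25 for Fos and -2.30 for Egr1, and Junb was 0.58 in elongating over round cells; at Leiden resolution 0.5 Egr1 was -0.28 and Junb 0.0367. Leaving the early genes in changed nothing, since 0 of them ranked as variable. With DESeq2 Zfp36 was -0.31 in round over spermatocyte-like cells, and Zfp36 0.45, Ier2 0.26 and Junb 0.27 in elongating over round cells. There, DESeq2 size factors in edgeR gave 0.21 for Ier2 and 0.0777 for Junb, and leaving out likely doublets 0.0942 and 0.0013. Total counts as the scale gave -0.27 for Zfp36 in the earlier step and -0.0734 for Egr1 and -0.55 for Jun in the later one. The cause of these changes was not tested. Stressed 1, with 409 cells, has the fewest counts in all.

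Shares of cells (stressed minus control, percentage points) were -0.0185 for Junb, 0.0230 for Jund and -0.0370 for Egr1 with at least 3 counts, 2.03 for Jund in the named classes, and -0.0187 for Junb, 1.99 for Jund and -0.122 for Egr1 without both libraries. The Fos and Jun ratio in stressed 1 was 5.23 within the named classes.

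The replicate numbers were not taken as pairs: same-numbered libraries had correlations of -0.139, -0.0132 and 0.213, and the largest, 0.337, joined stressed 1 with control 2. With the number as a replicate block, 0 genes were called over all cells, 1 in spermatocyte-like and 1 in round spermatid-like cells. The block gave log2 fold changes of -0.77 for Fos, -0.73 for Egr1 and 0.0037 for Jund over all cells, -0.21 for Atf3, -0.52 for Fos and -0.32 for Jun in round cells, and -1.02 for Egr1 in elongating cells.

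Leaving out 1 library at a time, 0 to 3 genes were called over all cells, in round and in elongating cells. Stressed over control ran over all cells from -1.33 to 4.06 for Atf3, -2.81 to 5.0015 for Fos, -2.69 to 2.12 for Egr1, -0.35 to 0.42 for Jund and -0.49 to 3.12 for Jun. In round cells it ran from -1.63 to 2.63 for Atf3, -2.90 to 2.07 for Fos and -2.61 to 2.21 for Jun, and in elongating cells from -0.85 to 2.23 for Atf3, -1.23 to 3.47 for Fos, -2.88 to 0.94 for Egr1 and -0.25 to 0.40 for Jund. Round over spermatocyte-like values ran from -0.80 to 0.13 for Egr1 and -0.75 to 0.61 for Zfp36, and elongating over round values from -0.82 to 0.20 for Fos, -1.30 to 0.46 for Zfp36, -0.39 to 0.69 for Ier2 and -0.88 to 0.52 for Junb. Shares ran from -1.41 to 7.19 for Fos, -0.634 to 4.04 for Jun, -0.120 to 0.593 for Junb, -2.98 to 2.31 for Jund, -0.311 to 0.891 for Egr1, -0.307 to 3.28 for Atf3, -0.134 to 1.68 for Ier2 and -0.135 to 0.945 for Zfp36.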
